A study of Mus musculus with 26 samples.

Results

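The genes described here are 10 transcripts of the integrated stress response and of its secreted products, out of 55487 genes in the deposited table. They were chosen by name, with earlier results of these data known. They are 5 transcription factors (*Atf4*, *Atf5*, *Atf3*, *Ddit3* and *Cebpb*), the pseudokinase *Trib3*, the coregulator *Nupr1*, the enzyme *Chac1* and the mitokines *Gdf15* and *Fgf21*. Expression was measured in the proximal small intestine (SI) of tamIEC-KO mice, hereafter knockout mice, which carry loxP-flanked alleles of a gene with a role in mitochondria and the Villin-creERT2 transgene, and of control mice (fl/fl), which are littermates with the same floxed alleles and no Cre. All mice, controls included, received 5 daily injections of tamoxifen as adults of 8 to 12 weeks, and tissue was taken 3 days (7 knockout and 7 control mice) or 7 days (6 and 6) after the last one. The Villin promoter drives Cre in intestinal epithelial cells (IECs), whereas a piece of SI also holds lamina propria and muscle. Because the control mice had no Cre, effects of the active recombinase and of the loss of the floxed gene cannot be told apart in these groups.

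The integrated stress response is a shared pathway in which kinases phosphorylate the translation initiation factor eIF2, which lowers translation of most mRNAs but favours that of *Atf4* and a few others with short upstream reading frames. ATF4 then activates genes for amino acid synthesis, transport and tRNA charging, and further regulators such as CHOP (encoded by *Ddit3*), ATF3, ATF5, TRIB3 and NUPR1. Mitochondrial damage reaches this pathway through the protease OMA1, the messenger DELE1 and the kinase HRI, and GDF15 and FGF21 are hormones that stressed tissues release into the blood. RNA levels report only part of this, since ATF4 itself is controlled to a large extent by translation.

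All values below are CPM, the estimated count of a gene scaled to the total of its library, and total counts ranged from 3720168 to 6338016. Libraries were made from 3′ ends of transcripts, so a count is a count of 3′ tags and not of bases covered. Defining markers of the intestinal epithelium (10 genes, such as *Vil1* and *Alpi*) were found in every group, but several libraries also held RNA of neighbouring organs. Of 9 stomach markers the summed level was above 10000 CPM in 3 libraries, namely knockout replicate 1 (10482 CPM) and control replicate 5 (25959.6 CPM) at 3 days and control replicate 2 at 7 days (12033 CPM). Of 12 pancreatic acinar markers it was above 10000 CPM in 4 libraries, namely knockout replicate 2 (34063 CPM) and control replicates 2 and 3 at 3 days, and knockout replicate 4 at 7 days. Fold changes of the tested genes among the 10 were therefore also estimated without these 7 libraries. They are called the libraries with RNA of other organs below. The libraries kept were not free of such RNA, with up to 2898 CPM of stomach markers and 4432 CPM of pancreatic markers. The gene lists, the permutation tests and the likeness of patterns were not redone without the 7 libraries. In tissue of this kind, fewer cells of a type and less RNA per cell cannot be told apart.

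The stretches of promoter that hold the same 8 letters in 4 of the genes are shown first, because these genes had very different levels in the data. ATF4 binds, with C/EBP partners, to a composite site known as CARE, searched here as TGATGNAA on either strand from 250 bases before to 50 bases after each annotated start (RefSeq, GRCm38.p6). This match was present in 1304 of 32851 promoters (3.97%) and in 5 of the 12 promoters of the 10 genes (41.7%), which belonged to 5 genes. In *Atf3*, *Chac1*, *Fgf21* and *Nupr1* it read TTGCATCA in the direction of the gene, beginning 110, 193, 139 and 110 bases before the start, and in the windows below, each 5′ to 3′ along the gene, these letters are in capitals.
Atf3, chr1:191183410-191183469, minus strand: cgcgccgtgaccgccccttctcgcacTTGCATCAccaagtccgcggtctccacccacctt
Chac1, chr2:119351023-119351082, plus strand: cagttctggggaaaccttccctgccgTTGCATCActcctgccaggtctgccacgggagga
Fgf21, chr7:45615596-45615655, minus strand: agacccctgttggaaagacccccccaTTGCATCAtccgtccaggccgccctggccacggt
Nupr1, chr7:126625547-126625606, minus strand: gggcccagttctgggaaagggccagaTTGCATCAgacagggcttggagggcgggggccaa
The match of *Trib3* (TTACATCA) lay 14 bases after its start. *Chac1* also held TGACGCAA, a variant of the CRE site, at the far end of its window 250 bases before the start, which 161 promoters (0.49%) share. The full CRE, TGACGTCA, was in 588 promoters (1.79%) and in 0 of the 10 genes. A match is a string of letters and not a measured binding site, and its lack says only that these letters were not in this window. The motifs were chosen after some promoters had been read, so these shares are a description and no test of enrichment.

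At 3 days, 7 of the 9 genes with enough counts to be tested were higher in knockout mice, and 0 were lower. At 7 days, 9 of 9 were higher. These shares stood against 1.11% of all tested genes called higher and 0.323% called lower at 3 days, and 19.7% called higher and 18.8% called lower at 7 days (edgeR's quasi-likelihood test, adjusted p under 0.05). As the genes were chosen with earlier results of these data known, this contrast is a description and no test. The median log2 fold change of the 9 genes was 1.88 at 3 days and 3.92 at 7 days, and that of all tested genes was -0.03 and -0.02. With library totals in place of TMM factors the calls over all genes at 3 days were 125 higher and 115 lower, against 230 and 67 with TMM, and 7 of the 9 genes were called as well. Without the 7 libraries with RNA of other organs, 7 were called at 3 days and 9 at 7 days. The genes that did not pass at 3 days were *Nupr1* and *Cebpb*, and the gene without enough counts was *Fgf21*. In 4 of the 9 (*Atf4*, *Atf5*, *Trib3* and *Gdf15*) every knockout library was above every control library at 3 days, as in 0.356% of all tested genes, and at 7 days this held for all 9, as in 11.0% of all tested genes.

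**Figure D1:**
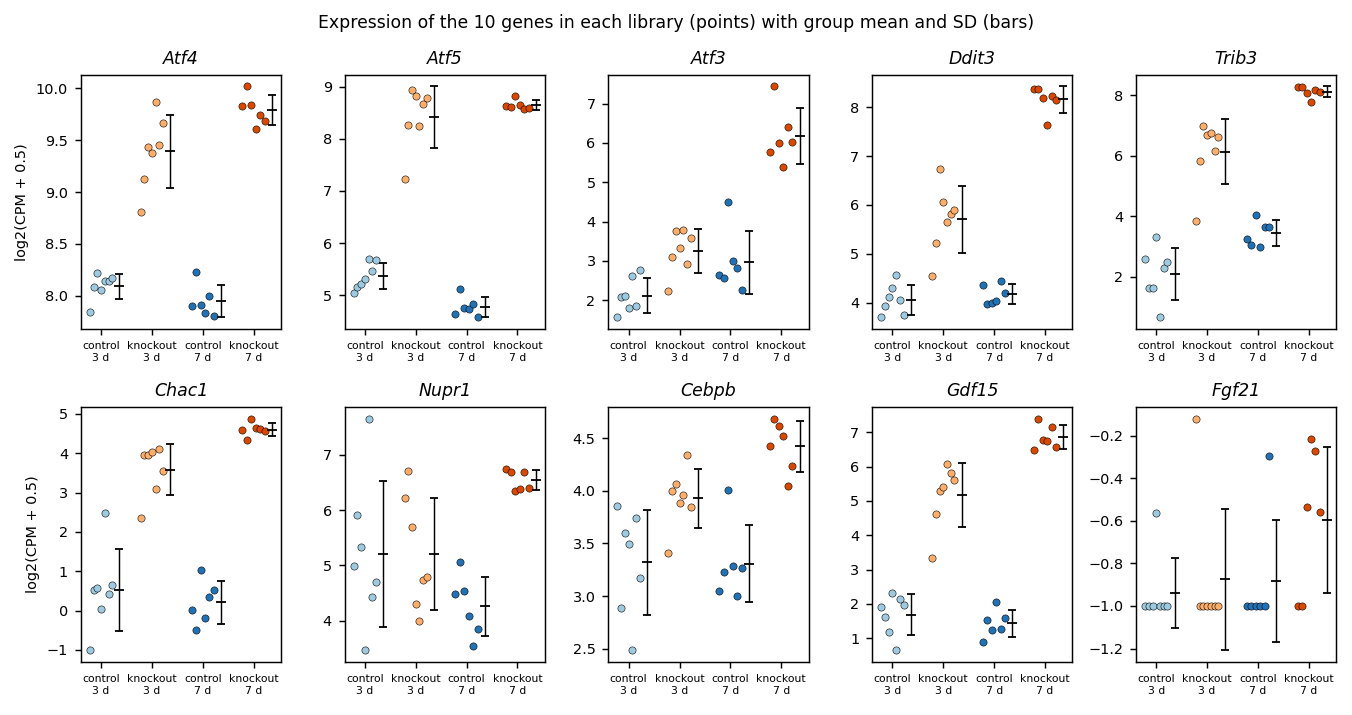
Expression of the 10 genes in each of the 26 libraries, as log2(CPM + 0.5) on the vertical axis of each panel, with 1 point per mouse and bars for the mean and SD of a group. At 7 days the 6 knockout libraries are above the 6 control libraries in every panel but *Fgf21*, whose points stand for 0 to 2 counts.

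*Atf4* (ENSMUSG00000042406, chr15:80255184-80257541), the central effector of the pathway, was already well expressed in control mice. At 3 days it was at 447, 694 and 937 CPM (lowest, median and highest) in knockout mice and at 229.9, 282 and 297 CPM in control mice. At 7 days it was at 780.3, 884 and 1039.6 CPM and at 223, 239.9 and 300.1 CPM. The genotypes did not overlap at either time, and the knockout mice of the 2 times overlapped. The log2 fold change was 1.44 (SE 0.15, adjusted p = 5.9e-05) at 3 days and 1.87 (SE 0.11, adjusted p = 1.5e-10) at 7 days by edgeR's quasi-likelihood test. The ratio of the mean CPM went from 2.51 to 3.58, but the change of the effect did not pass the threshold (0.45, SE 0.19, adjusted p = 0.0936, edgeR).

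*Atf5* (ENSMUSG00000038539, chr7:44812256-44816658), a related bZIP factor that acts in the mitochondrial stress response, had nearly the same median CPM at both times in knockout mice. Knockout mice were at 149, 403 and 486 CPM at 3 days and at 379.6, 393 and 453 CPM at 7 days. Control mice were at 32.5, 39.4 and 51.1 CPM and at 23.4, 26.3 and 34.4 CPM. The mean of the knockout mice thus differed 1.10-fold between the times (363 ± 118 CPM, SD, n = 7, and 401 ± 26.4 CPM, SD, n = 6). This ratio rests on scaling by library totals. In control mice the log2 difference of *Atf5* between the times was -0.25 with TMM factors and -0.61 with library totals (edgeR). Knockout against control, the log2 fold change was 3.24 (SE 0.23, adjusted p = 1.1e-06) and 3.92 (SE 0.12, adjusted p = 5.3e-14, edgeR), and the effects of the 2 times differed by 0.69 (SE 0.26, adjusted p = 0.0659, edgeR). The exons of *Atf5* share 82 bases with *Il4i1* and *Nup62* on the other strand, outside the last 400 bases where tags are expected.

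*Atf3* (ENSMUSG00000026628, chr1:191170296-191218039), a stress-inducible factor of the same family that can repress its targets, was low at 3 days and had, of the 9 genes, the largest ratio between the times in knockout mice. At 3 days it was at 4.20, 9.63 and 13.3 CPM in knockout mice and at 2.47, 3.72 and 6.37 CPM in control mice. At 7 days it was at 41.7, 63.8 and 174 CPM and at 4.26, 6.15 and 22.1 CPM. Of the 7 knockout mice, 6 were above all controls at 3 days, and all 6 were at 7 days, where the mean of the knockout mice was 8.39 times that at 3 days. The log2 fold change was 1.37 (SE 0.28, adjusted p = 0.0181) and 3.21 (SE 0.40, adjusted p = 3.1e-06), and the effect grew by 1.85 (SE 0.54, adjusted p = 0.015, edgeR). This growth did not pass without the 7 libraries with RNA of other organs (1.57, SE 0.64, adjusted p = 0.102, edgeR).

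*Ddit3* (ENSMUSG00000025408, chr10:127290774-127296288) encodes CHOP, a C/EBP-type factor that acts late in the response and can promote cell death. Knockout mice were at 22.9, 56.1 and 106 CPM at 3 days and at 199, 296 and 333 CPM at 7 days. Control mice were at 12.5, 16.2 and 23.3 CPM and at 15.1, 16.9 and 21.3 CPM. The lowest knockout mouse at 3 days was just below the highest control, whereas at 7 days the groups were far apart, with means of 289.8 ± 48.9 and 17.6 ± 2.60 CPM (SD, n = 6 each) and a 16.4-fold ratio. Knockout against control differed on the log2 scale by 1.88 (SE 0.26, adjusted p = 9.2e-04) and 4.06 (SE 0.15, adjusted p = 6.3e-13), and its growth of 2.20 (SE 0.32, adjusted p = 1.1e-05, edgeR) had the smallest adjusted p of the 9 genes in this comparison. The table lists the symbol under a second identifier (ENSMUSG00000116429), whose exons lie within those of the first over 105 bases. That entry was at 2.54, 6.0 and 7.13 CPM in knockout and 0.169, 0.225 and 0.434 CPM in control mice at 7 days (a difference of 4.28 on the log2 scale, SE 0.35, adjusted p = 1.7e-08, edgeR), and reads of the 2 entries may be shared. At 3 days it was at 0.832, 1.54 and 2.77 CPM and at 0, 0.624 and 1.48 CPM, with overlap. The difference did not pass at that time (1.38, SE 0.55, adjusted p = 0.263, edgeR). The last 400 bases of *Ddit3* overlap *Mars* on the other strand by 68 bases, and as the stated counting options hold none for strand, reads of the 2 genes within the overlap cannot be told apart.

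*Cebpb* (ENSMUSG00000056501, chr2:167688915-167690418), a C/EBP factor that pairs with ATF4 and CHOP, had the smallest effect of the 9 tested genes at 7 days. At 3 days it was at 10.1, 15.1 and 19.7 CPM in knockout mice and at 5.11, 10.8 and 14.0 CPM in control mice, with overlap. At 7 days it was at 16.0, 21.7 and 25.2 CPM and at 7.51, 9.03 and 15.6 CPM, and the groups were just apart. The log2 fold change was 0.70 (SE 0.21, adjusted p = 0.125) and 1.14 (SE 0.18, adjusted p = 6.1e-05), both from edgeR. At 3 days the call depended on the setting, with adjusted p = 0.0329 from DESeq2, 0.0448 from edgeR with all 26 libraries in 1 fit and 0.0381 from edgeR without knockout replicate 1. A two-sided exact permutation test of this gene alone, on log2(CPM + 0.5), gave p = 0.0117 without adjustment for other genes.

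*Trib3* (ENSMUSG00000032715, chr2:152337422-152344032) encodes a pseudokinase that binds ATF4 and CHOP and dampens them. With all libraries kept, *Trib3* had the largest log2 fold change of the 9 genes at 3 days. Knockout mice were at 13.9, 97.4 and 126 CPM at 3 days and at 217, 279.9 and 309.6 CPM at 7 days. Control mice were at 1.08, 4.37 and 9.40 CPM and at 7.31, 10.6 and 16.1 CPM. Every knockout mouse was above every control at both times, and all 6 knockout mice at 7 days were above all 7 at 3 days. The log2 fold change was 4.32 (SE 0.45, adjusted p = 5.0e-05) and 4.69 (SE 0.20, adjusted p = 2.9e-12), and the difference of 0.39 (SE 0.51, adjusted p = 0.665, edgeR) did not pass. The level rose between the times in control mice too, and the mean of the knockout mice was 3.38 times higher at 7 than at 3 days. The rank at 3 days depended on the libraries with RNA of other organs. Without these 7 libraries, *Chac1* was above *Trib3* (4.60 against 4.15, edgeR). With scores of the pancreatic and stomach markers as covariates, *Chac1* was again above *Trib3*.

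*Nupr1* (ENSMUSG00000030717, chr7:126623249-126630861), a small chromatin protein first described in the inflamed pancreas, was the exception at 3 days. Knockout mice were then at 15.4, 27.1 and 104 CPM and control mice at 10.6, 31.3 and 200.0 CPM, and the groups overlapped throughout (log2 fold change -0.18, SE 0.58, adjusted p = 0.934, edgeR). At 7 days knockout mice were at 81.0, 93.1 and 107 CPM and control mice at 11.2, 19.2 and 32.8 CPM, without overlap. The log2 fold change at 7 days was 2.27 (SE 0.19, adjusted p = 2.1e-08), and the effect grew by 2.48 (SE 0.71, adjusted p = 0.0139, edgeR). The spread at 3 days went together with RNA of other organs. The highest control (200.0 CPM, replicate 5) had the highest stomach sum, and the next (59.5 CPM, replicate 2) had a pancreatic sum of 19600.3 CPM. The highest knockout (104 CPM, replicate 2) had the highest pancreatic sum, and the next (74.0 CPM, replicate 1) had the stomach sum of 10482 CPM. Without the libraries above 10000 CPM, the value at 3 days was 0.45 (SE 0.33, adjusted p = 0.626), and with the marker scores as covariates it was 0.97 (SE 0.27, adjusted p = 0.111), so that the sign turned and the threshold was not passed (edgeR). At 7 days the value without these libraries was 2.47 (adjusted p = 5.0e-09, edgeR), and the growth of the effect was 2.06 (adjusted p = 6.2e-04, edgeR). Without control replicate 5 of day 3 alone, this growth was 1.60 (adjusted p = 0.0371, edgeR).

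**Figure D2:**
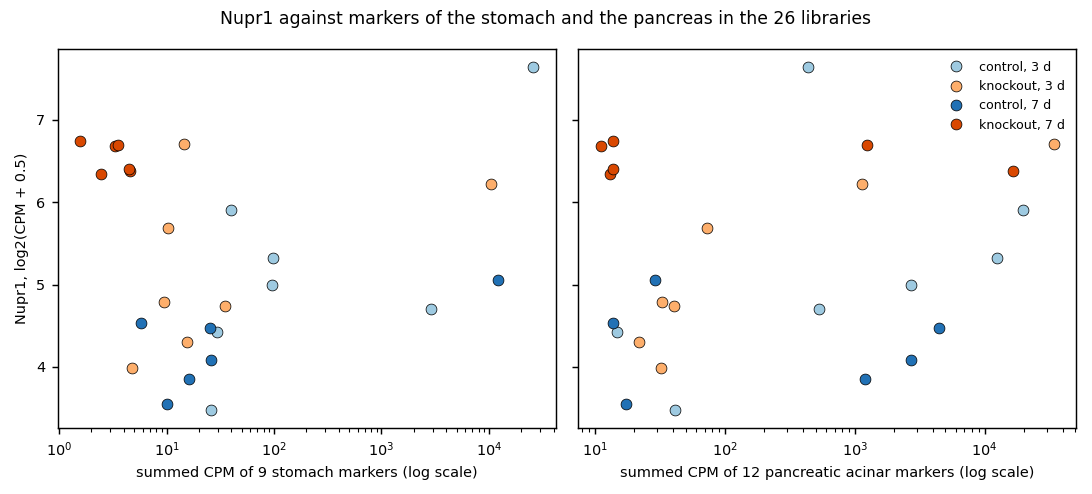
*Nupr1* in each of the 26 libraries, as log2(CPM + 0.5), against the summed CPM of 9 stomach markers (left) and 12 pancreatic acinar markers (right), both on a log scale. At 3 days the highest control (200.0 CPM) is the library with the highest stomach sum. The highest knockout (104 CPM) of that day has the highest pancreatic sum. At 7 days all 6 knockout libraries are between 81.0 and 107 CPM, 5 of them with sums of at most 1236 CPM. The remaining library, replicate 4, is at 82.6 CPM with a pancreatic sum of 16468 CPM.

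*Chac1* (ENSMUSG00000027313, chr2:119351229-119354381) encodes an enzyme that degrades glutathione and is a target of ATF4 and CHOP. At 3 days it was at 4.62, 15.0 and 16.8 CPM in knockout mice and at 0, 0.930 and 5.11 CPM in control mice. At 7 days it was at 19.8, 23.8 and 28.8 CPM and at 0.217, 0.639 and 1.54 CPM. The overlap at 3 days came from the lowest knockout and the highest control, replicate 5 with the high stomach sum. The next highest control was at 1.06 CPM. In control libraries these levels were 0 to 19 counts, so the ratios carry a large counting error. On the log2 scale the effect was 3.39 (SE 0.51, adjusted p = 0.00169) and 4.97 (SE 0.25, adjusted p = 2.3e-11), with a difference of 1.59 (SE 0.69, adjusted p = 0.116, edgeR). Without the 7 libraries with RNA of other organs the effect at 3 days was 4.60 (adjusted p = 4.6e-05) and the difference between the times was 0.23 (SE 0.75, adjusted p = 0.885, edgeR).

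*Gdf15* (ENSMUSG00000038508, chr8:70629393-70632456) encodes a hormone of the TGF-β family that lowers food intake through a receptor in the brainstem. Knockout mice were at 9.67, 42.3 and 66.7 CPM at 3 days and at 88.1, 108 and 167 CPM at 7 days. Control mice were at 1.08, 3.29 and 4.44 CPM and at 1.35, 2.16 and 3.66 CPM. All knockout mice were above all controls at both times, and all knockout mice at 7 days were above those at 3 days. The ratio of the means was 13.8 at 3 days (40.7 ± 19.2 against 2.94 ± 1.19 CPM, SD, n = 7 each) and 51.5 at 7 days (118 ± 29.9 against 2.29 ± 0.788 CPM, SD, n = 6 each). The effect of the knockout was 3.88 on the log2 scale (SE 0.37, adjusted p = 3.4e-05) and 5.71 (SE 0.20, adjusted p = 3.2e-13), and the effect grew by 1.85 (SE 0.47, adjusted p = 0.00578, edgeR). The value at 7 days was the largest of the 9 genes.

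*Fgf21* (ENSMUSG00000030827, chr7:45613886-45615490), the other hormone, was hardly detected. Its count was 0 in 6 of 7 knockout and 6 of 7 control libraries at 3 days, and in 2 of 6 and 5 of 6 at 7 days, and it reached at most 2 counts in any library. All libraries thus were under the floor of 3 counts, and no fold change is given. A two-sided exact permutation test of log2(CPM + 0.5) gave p = 1 at 3 days and p = 0.152 at 7 days. A difference of *Fgf21* RNA between the genotypes was not detectable at this depth. Its promoter holds the CARE match shown above.

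**Figure D3:**
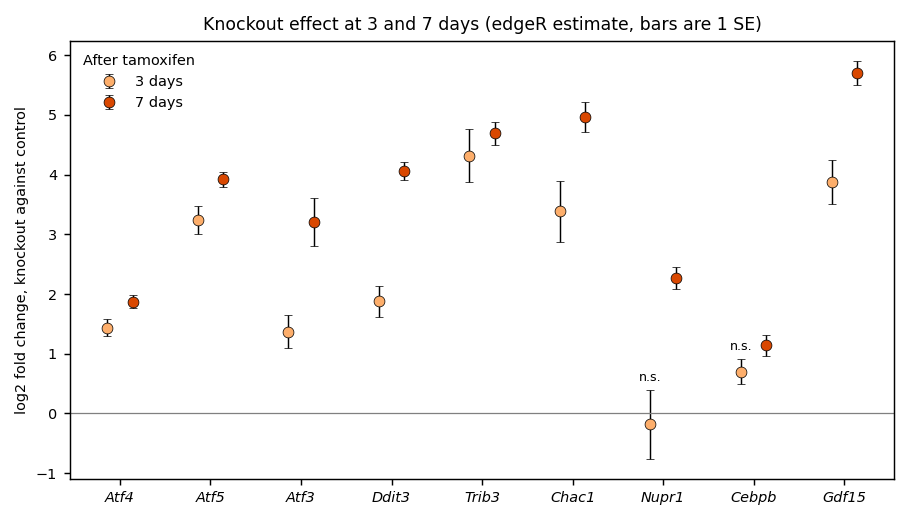
Log2 fold change of knockout against control mice at 3 and 7 days for the 9 tested genes, with bars for 1 SE, from edgeR (n.s., adjusted p of 0.05 or more). With all libraries kept, as drawn here, *Trib3* is highest at 3 days (4.32) and *Gdf15* at 7 days (5.71), and *Ddit3* and *Nupr1* show the widest gaps between the times.

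The change of the effect between the times was tested as the interaction of genotype and day. It was larger at 7 days for 4 of the 9 genes (*Ddit3*, *Nupr1*, *Gdf15* and *Atf3*) and smaller for 0, against 8.64% and 9.74% of all tested genes. The median change was 1.59 in the 9 genes and 0.03 in all tested genes. Without the 7 libraries with RNA of other organs, the count was 3, as *Atf3* did not pass. For *Atf4*, *Atf5*, *Trib3* and *Cebpb* the effect at 7 days was larger by 0.39 to 0.69 with adjusted p between 0.0659 and 0.665 (edgeR). With library totals as scaling, the changes of *Atf4* (0.51, adjusted p = 0.0473) and *Atf5* (0.75, adjusted p = 0.0363) passed as well. The labels name no batch, so day and any batch run along with it cannot be separated in comparisons across days. Tissue markers differed between the times too. In control mice the summed epithelial markers were at 2268 to 5144 CPM at 3 days and 6671 to 8153 CPM at 7 days. In knockout mice they were at 1439 to 5774 and 3458 to 4998 CPM, with overlap. Summed smooth muscle markers were at 2715 to 4555 and 1316 to 1855 CPM in control mice. Knockout mice were at 1601 to 6296 and 1206 to 1599 CPM. The part of tissue make-up in comparisons across days was not tested.

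Among the 7 knockout mice at 3 days, replicate 1 was the lowest for 8 of the 9 detected genes, and only for *Nupr1* was another mouse, replicate 5, the lowest. It was at 447 CPM for *Atf4*, 149 CPM for *Atf5*, 13.9 CPM for *Trib3* and 9.67 CPM for *Gdf15*, where the next lowest mice were at 559.7, 304, 56.2 and 23.9 CPM. In the same library the summed epithelial markers were the lowest of all 26 libraries (1439 CPM, against 2843 to 5774 CPM in the other knockout mice at 3 days), and the summed smooth muscle markers (8 genes) were the highest (6296 CPM, others 1601 to 4564 CPM). The part of these tissues in its low values was not tested. Without this mouse, 8 of the 9 genes were called at 3 days, the log2 fold changes of *Atf4*, *Atf5*, *Trib3* and *Gdf15* were 1.53, 3.39, 4.51 and 4.05, and the number of genes called over the whole table was 779 in place of 297. At 7 days no mouse stood out in this way. Replicate 4, which had the pancreatic sum of 16468 CPM, was the lowest for 4 genes (*Atf4*, *Atf3*, *Ddit3* and *Trib3*), and replicate 2 was the highest for 5.

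**Figure D4:**
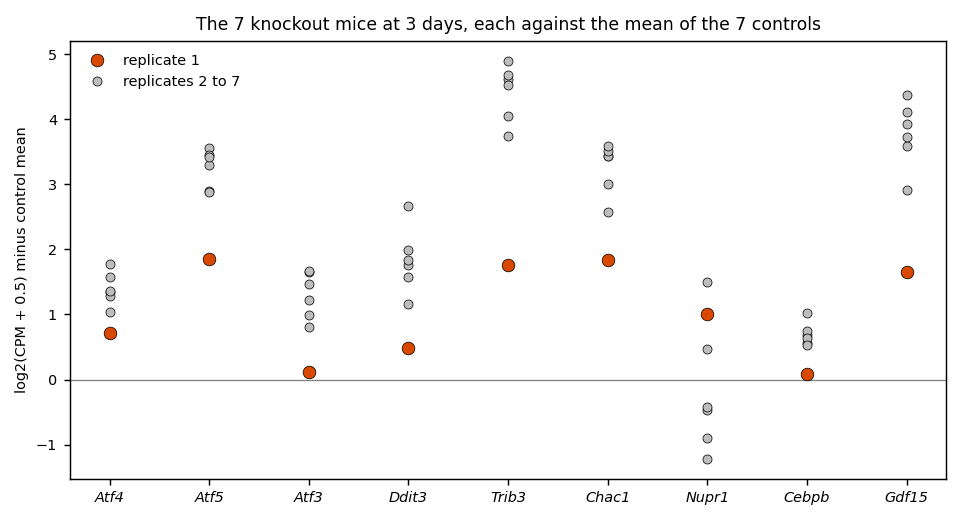
The 7 knockout mice at 3 days, as log2(CPM + 0.5) minus the mean of the 7 control mice at 3 days, for the 9 detected genes. Replicate 1 (large points) is the lowest of the 7 for 8 genes and the second highest for *Nupr1*.

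In control mice, 3 of the 9 genes were higher at 7 than at 3 days, against 19.7% of all tested genes. The epithelial and smooth muscle sums of these groups, given above, differed as well, and their part was not tested. *Trib3* was at 4.38 ± 2.72 CPM (SD, n = 7) at 3 days, and by 7 days it had reached 10.7 ± 3.34 CPM (SD, n = 6), with an effect of 1.66 on the log2 scale (SE 0.34, adjusted p = 0.00101, edgeR). *Atf3* went from 4.02 ± 1.45 to 8.59 ± 6.69 CPM (SD, n = 7 and 6), which was 1.51 on the log2 scale (SE 0.39, adjusted p = 0.00578, edgeR). *Ddit3* was at 16.5 ± 3.76 and 17.6 ± 2.60 CPM (SD, n = 7 and 6), and its call (0.45, SE 0.16, adjusted p = 0.0343, edgeR) was lost with library totals in place of TMM factors (0.09, SE 0.15, adjusted p = 0.636, edgeR). That scaling moved the median of all genes from -0.06 to -0.41 and the calls over all genes from 4077 higher and 3364 lower to 1977 higher and 7372 lower, and under it *Atf5* was lower at 7 days (-0.61, adjusted p = 0.00165) and *Nupr1* was too (-1.48, adjusted p = 0.0316, edgeR). Without replicate 3 of day 7, at 22.1 CPM the highest control, *Atf3* was higher by 0.90 (SE 0.26, adjusted p = 0.0132, edgeR). The direction of *Trib3* and *Atf3* was the same under both scalings (1.27 and 1.12 with library totals).

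The genes around these regulators were described by lists of their known functions. Upstream, the 4 eIF2α kinases and the mitochondrial relay (7 genes with *Oma1*, *Dele1* and *Gcn1*) had 0 calls at 3 days, where 1.11% and 0.323% of all tested genes were called higher and lower. At 7 days 1 gene was higher and 1 lower, with a median log2 fold change of 0.01, where 19.7% and 18.8% of all tested genes were called higher and lower. *Oma1*, the protease that cuts DELE1, was at 46.7 CPM in knockout and 26.6 CPM in control mice at 7 days (0.84 on the log2 scale, SE 0.11, adjusted p = 6.7e-06, edgeR). *Eif2ak2*, the kinase PKR that senses double-stranded RNA, was at 53.6 CPM in knockout and 65.2 CPM in control mice (-0.26, SE 0.10, adjusted p = 0.0493, edgeR).

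Of the 10 subunits of eIF2 and eIF2B and regulators of eIF2α dephosphorylation, 1 was higher at 3 days and 8 were higher at 7 days (against 1.11% and 19.7% of all tested genes), with 0 lower and a median of 0.61 at 7 days. *Ppp1r15a* encodes GADD34, the phosphatase subunit that reverses the response and is a target of ATF4 and CHOP. It was at 16.3 CPM in control and 18.2 CPM in knockout mice at 3 days (0.26, SE 0.22, adjusted p = 0.661) and at 7.42 and 103 CPM at 7 days (3.82, SE 0.19, adjusted p = 2.6e-11), and its effect grew by 3.58 (SE 0.31, adjusted p = 3.4e-09, edgeR). At 3 days it thus did not pass, whereas *Ddit3* and *Trib3* did. The gene called at both times was *Eif2s2*, which encodes the β subunit of eIF2 (0.92 and 1.52, adjusted p = 0.0014 and 1.5e-09, edgeR). *Eif2b3* and *Eif2b5*, subunits of the exchange factor that reloads eIF2, had log2 fold changes of 0.98 and 0.75 at 7 days (adjusted p = 6.6e-06 and 1.1e-05, edgeR).

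Other bZIP factors and Tribbles pseudokinases (23 genes) had 1 call at 3 days, where 1.11% and 0.323% of all tested genes were called higher and lower. The gene called was *Cebpg*, a frequent partner of ATF4 (0.58, SE 0.12, adjusted p = 0.0246, edgeR). At 7 days 12 were higher and 3 lower, with a median of 0.33, and the share of lower genes was thus under the 18.8% of all tested genes, while that of higher genes was over their 19.7%. *Cebpg* was then at 149 against 70.7 CPM (1.09, SE 0.09, adjusted p = 3.7e-08), and *Jdp2*, a repressor of AP-1, was at 19.3 against 4.82 CPM (2.06, SE 0.21, adjusted p = 2.3e-07, edgeR). *Trib2*, a relative of *Trib3*, had a log2 fold change of 0.99 (SE 0.19, adjusted p = 4.3e-04, edgeR). *Batf2*, a factor linked to interferon responses, was at 2.35 against 10.8 CPM (-2.18, SE 0.23, adjusted p = 3.7e-07, edgeR).

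Known targets of ATF4 and CHOP (25 genes, of which 24 were tested) had 16 higher and 0 lower at 3 days, with a median of 1.43, and 24 higher at 7 days, with a median of 2.09, where 1.11% and 19.7% of all tested genes were higher. They were listed because they are known targets, and part of them had been seen to rise in earlier results of these data. *Slc7a11*, the cystine transporter that supplies glutathione synthesis, was at 7.36 to 51.7 CPM in knockout and 0.265 to 3.73 CPM in control mice at 3 days, and at 526 to 770.3 and 0 to 1.71 CPM at 7 days. Its log2 fold change went from 4.22 (SE 0.47, adjusted p = 8.7e-05) to 9.79 (SE 0.34, adjusted p = 3.3e-13), and the effect grew by 5.60 (SE 0.69, adjusted p = 9.9e-07, edgeR). *Psat1*, an enzyme of serine synthesis, was near its later CPM at 3 days in knockout mice, as *Atf5* was, and with the same limit from the scaling. It was at 81.8 and 69.8 CPM in knockout mice at 3 and 7 days and at 8.59 and 5.52 CPM in control mice (3.36 and 3.67, adjusted p = 1.8e-07 and 5.3e-13, edgeR). *Vldlr*, a lipoprotein receptor, had log2 fold changes of 2.22 and 4.44 at 3 and 7 days (adjusted p = 8.1e-04 and 3.4e-11), and *Ero1l*, an oxidase of the endoplasmic reticulum (ER), of 1.85 and 3.46 (adjusted p = 0.00141 and 7.3e-13, edgeR). The gene left out by the filter on zero counts was *Adm2*, named here after its values were seen, which had 0 counts in all 13 control libraries and 0.540 to 2.85 CPM in the 6 knockout libraries at 7 days. The CARE letters were in 4 of the 24 promoters at hand for the listed targets (16.7%), which belonged to 4 of 19 genes (21.1%).

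Most genes of the other arms of the ER stress response were lower at 7 days. Of 15 genes of the ATF6 and IRE1 branches, 0 were called at 3 days, and 2 were higher and 11 lower at 7 days, with a median of -0.62. Over all tested genes, 0.323% were lower at 3 days, and 19.7% were higher and 18.8% lower at 7 days. *Sdf2l1*, *Pdia4* and *Pdia3*, which assist protein folding in the ER, were at 9.37, 48.7 and 278 CPM in knockout and 34.6, 117 and 482 CPM in control mice (-1.85, -1.23 and -0.76, adjusted p = 2.3e-06, 1.3e-05 and 3.4e-05, edgeR). *Dnajb9*, a co-chaperone of BiP, was higher (66.3 against 24.4 CPM, 1.46, SE 0.13, adjusted p = 5.2e-08, edgeR). The other higher gene was *Hspa5*, which encodes BiP itself and is also named after its values were seen. It was at 1868 against 1318 CPM (0.53, SE 0.14, adjusted p = 0.0065, edgeR). Beside this, 7 of the 10 epithelial markers were lower and 1 was higher at 7 days, and their summed level was 3458 to 4998 CPM in knockout and 6671 to 8153 CPM in control mice, without overlap. The summed smooth muscle markers were at 1206 to 1599 and 1316 to 1855 CPM, and 10 leukocyte markers at 69.3 to 149.8 and 96.4 to 151 CPM. The summed stomach markers were at 1.58 to 4.53 and 5.81 to 12033 CPM, with 5 of the 9 markers at a median of 0 in each group and *Pgc* called lower. The summed pancreatic markers were at 11.1 to 16468 and 13.7 to 4432 CPM, with 0 of 8 tested markers called. The part of the tissue make-up in the changes at 7 days was not tested.

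Receptors and relatives of the mitokines (10 genes) had 0 calls at 3 days among 7 tested, where 1.11% and 0.323% of all tested genes were called higher and lower. At 7 days 1 was higher and 1 lower among 6 tested, near the shares of all tested genes (19.7% and 18.8%). *Gfral*, the receptor of GDF15, and *Fgf15*, an intestinal FGF of the distal SI, had 0 counts in all 26 libraries. *Klb*, the coreceptor of FGF21, was at a mean of 0.124 to 0.840 CPM in the 4 groups. *Fgfr3* was at 3.59 against 11.9 CPM at 7 days (-1.69, SE 0.16, adjusted p = 9.6e-08), and *Fgfr1*, the main partner of *Klb*, at 11.6 against 7.69 CPM (0.61, SE 0.22, adjusted p = 0.0391, edgeR).

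**Figure D5:**
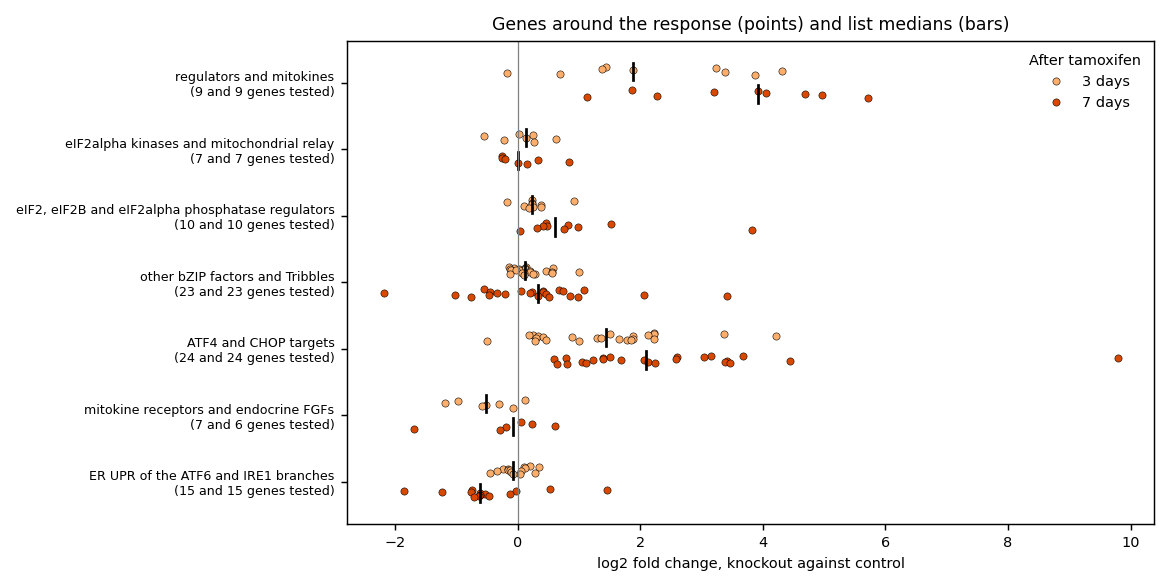
Log2 fold change of knockout against control mice for each tested gene of the 7 groups of genes at 3 and 7 days, with black bars for the medians. At 7 days the median is 3.92 for the regulators and mitokines and 2.09 for targets of ATF4 and CHOP, and -0.62 for the ATF6 and IRE1 branches.

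Genes whose pattern over the 26 libraries was most like that of 3 of the regulators were found by the root mean square difference of standardized log2 CPM, among 12721 other genes whose mean count was 20 or more. Nearest to *Atf4* were *Eprs* (0.218), *Eif3c* (0.237) and *Gars* (0.258), of which *Eprs* and *Gars* encode tRNA synthetases and *Eif3c* a subunit of an initiation factor. Nearest to *Ddit3* were *Eif5* (0.184), *Sars* (0.187) and *Eif4ebp1* (0.203). Nearest to *Gdf15* were *Eprs* (0.232), *Eif3c* (0.240) and *Hspa9* (0.257), the last a mitochondrial chaperone. *Atf4* and *Gdf15* were also near each other (0.238), whereas *Nupr1* was far from *Atf4* (0.979), *Ddit3* (0.884) and *Gdf15* (1.042). These values describe the same libraries as the comparisons above, and likeness within the groups of mice was not tested. For *Fgf21*, with too few counts, no such genes were sought.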

How the data were processed

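RNA of proximal SI from 26 mice was sequenced with a 3′ QuantSeq kit (FWD), 1 library per mouse. Per the labels and the study's methods, the authors trimmed reads with cutadapt 2.10, aligned them with Subread to GRCm38 plus spike-ins and assigned them to exons by featureCounts 2.0.1, multi-mapping reads included and reads on several genes split into fractions. Versions are from the submitters' processing notes. The deposited values are these estimated counts, not normalized, of which 95.0% were whole. A deposited CPM table equals counts divided by library totals. The design assumed whole counts, so values were rounded for the fits. The stated counting options hold none for strand. The values of the targeted gene are not reported here. The 92 spike-in entries were at 0, and 0 pairs of libraries were identical.

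Genes with a zero count in more than 50% of the libraries of either group were left out, and each day was fitted separately by edgeR 4.0.16 in R 4.3.3 (quasi-likelihood test, TMM, 20760 and 20259 genes). The interaction was fitted over 26 libraries (19604 genes), and control mice were compared between days (20646 genes). P-values were adjusted by Benjamini-Hochberg over all genes tested (threshold 0.05). SEs were derived from the fold change and the F statistic (fold change over root F). Single genes were tested with two-sided exact permutation tests on log2(CPM + 0.5). CPM in the text are untransformed, and fold changes are from the fits unless called ratios of means. Scripts were tested on simulated data.

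The 10 genes and the lists were chosen with earlier results of these data known. Of each other list, up to 4 genes with the largest log2 fold change at 7 days among called genes whose mean count was 20 or more were named, and a gene that passed in opposite directions at the 2 times would have been. For 3 regulators the 3 most similar genes were named. Promoter motifs were chosen after some promoters had been read. Gene positions are from GENCODE M21 on GRCm38, and promoters, found for all 10 genes, are from RefSeq (GRCm38.p6). Alternatives were filterByExpr, no filter, DESeq2 1.42.0, its size factors in edgeR, unrounded counts, 1 fit of all 26 libraries, organ scores as covariates, a replicate block, each mouse left out in turn and other pseudocounts. Leaving out the 7 libraries with RNA of other organs and scaling by library totals were chosen after seeing the data. Depth sets a floor of 3 counts per library, which covers counting error only. P-values measure the spread between mice.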

Additional observations from a re-analysis of the deposited data

Results flagged for a closer look

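In 36 groups of libraries of the 9 detected genes, 7 held a value far from the others by Dixon's criterion, where chance gives about 1 in 20 groups (1.8 of 36). In control mice at 3 days these were *Nupr1* at 200.0 CPM (nearest 59.5 CPM) and *Chac1* at 5.11 CPM (nearest 1.06 CPM), both in replicate 5, the library with the highest stomach markers. In control mice at 7 days they were *Atf3* at 22.1 CPM (nearest 7.50 CPM) and *Cebpb* at 15.6 CPM (nearest 9.24 CPM), both in replicate 3, which was also the highest control of that day for *Trib3* and *Chac1*. In knockout mice at 7 days *Atf3* was at 174 CPM in replicate 2 (nearest 84.9 CPM), *Atf5* at 453 CPM in replicate 3 (nearest 401 CPM), and *Ddit3* at 199 CPM in replicate 4 (nearest 284 CPM), the knockout library of that day with the highest pancreatic markers.

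The knockout effect differed between 3 and 7 days, by edgeR's test of the interaction, for *Ddit3* (2.20 larger at 7 days on the log2 scale), *Nupr1* (2.48), *Gdf15* (1.85) and *Atf3* (1.85).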

How the results depend on the processing

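The number of the 9 genes called was between 7 and 8 at 3 days and was 9 at 7 days under the 10 alternatives of each day, was between 3 and 6 for the change of the effect and between 2 and 4 in control mice under 8 alternatives each. Leaving out single mice gave 7 to 8, 9 to 9, 4 to 5 and 2 to 4. Labels number the mice of both genotypes alike, but same-numbered libraries deviated together in some cases only (correlations of -0.282 to 0.295, with 4 of 13 best with their own number). With the replicate block, edgeR called 7 genes at 3 days, 9 at 7 days, 5 for the change of the effect, where *Atf5* passed (0.76, adjusted p = 0.0447), and 2 in control mice, where *Ddit3* was lost (0.41, adjusted p = 0.0609). Over all genes at 3 days the block called 99 in place of 297, DESeq2 769, 1 fit of all libraries 808, and leaving out single mice 171 to 779.

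Signs turned only for values that had not passed the threshold, and the cause was not tested. *Nupr1* at 3 days went from -0.18 to 0.27 with the block, 0.97 with organ scores, 0.45 without the 7 libraries and 0.68 without control replicate 5 (-0.61 to 0.68 over single mice left out). In control mice, *Chac1* went from -0.42 to 0.84 without the 7 libraries and 0.36 without replicate 5 of day 3 (-0.81 to 0.36 over single mice), *Gdf15* from -0.01 to 0.07 with the block and to between -0.20 and 0.10 over single mice, above 0 in 7 fits, and with library totals *Atf4* went from 0.22 to -0.14 and *Cebpb* from 0.33 to -0.04. The call of *Ddit3* in control mice was lost in 7 of 13 fits without 1 mouse (replicates 1, 2, 6 and 7 of day 3 and 1, 5 and 6 of day 7, adjusted p of 0.0560 to 0.0861) and with filterByExpr (0.37, adjusted p = 0.0604, edgeR). For the change of the effect, DESeq2 also called *Chac1* (1.63, adjusted p = 0.0456), as did edgeR without control replicate 1 of day 3 (1.82, adjusted p = 0.0487). Among knockout mice of day 3, *Atf4* passed without replicate 5 (0.53, adjusted p = 0.0290) and *Atf5* without replicate 1, 3 or 4 (0.55, 0.77 and 0.75, adjusted p of 0.0357 to 0.0470, edgeR). *Nupr1* in control mice passed without replicate 4 of day 3 (-1.38, adjusted p = 0.0362, edgeR). Low counts limit *Fgf21* throughout and *Chac1* in control mice.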
